A study of Mus musculus with 2 samples.

Results

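Immediate early genes are the first genes a cell transcribes after a growth factor, a cytokine or a stress, from promoters that are already poised and without new protein synthesis. Most of them encode transcription factors: FOS and JUN proteins pair through leucine zippers into activator protein 1 (AP-1), EGR1 binds GC-rich promoters, and ATF3 pairs with JUN or with itself. Their messages decay within a short time, and enzymatic dissociation of a tissue at body temperature is itself known to induce them, so in dissociated tumours their levels can hold both what the cells carried in the tumour and what was made during handling. The genes described here are *Fos*, *Fosb*, *Jun*, *Junb*, *Jund*, *Egr1*, *Atf3*, *Ier2*, *Ier3* and *Zfp36*, chosen by symbol, and all 10 were found once each among the 31054 features of both matrices.

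The cells came from pancreatic ductal adenocarcinoma (PDAC) tumours grown as allografts in mice of the genotype p16-CreERT2/R26-LSL-tdTomato. In these animals an inducible Cre expressed from p16 (*Cdkn2a*) removes a stop cassette before tdTomato, so a cell with an active p16 gene at induction, and its descendants, fluoresce. The induction scheme, the animals' age and sex, the implanted tumour line and the number of animals pooled were not given in the sources used here. The mice were perfused, the tumours were digested with Liberase and DNase, stained and sorted, and stromal cells with tdTomato (Tom positive) and without it (Tom negative) each gave 1 10x Genomics 3′ library. Both sorts share genotype, tumour model and digestion. With 1 library per group no difference was tested; 95% intervals cover counting error only, and levels are CPM, a gene's UMIs scaled by the total of the cells summed. A gene counts as past the limit, and as higher or lower, when the ratio of its CPM between the sorts was at least 1.5-fold in either direction. Where a pair of values is given, the Tom positive one comes first.

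The Tom positive library held 7568 barcodes and 128275546 unique molecular identifiers (UMIs), the Tom negative library 13604 and 164646314. Of these barcodes 4302 and 6580 were kept, at medians of 24191 and 20610.5 UMIs. The 2 libraries shared 3660 barcode sequences, and 2282 and 3349 barcodes were doubted because the other library held the same sequence with more than 5 times the UMIs or because both held it with under 5000 UMIs. tdTomato transcripts, which check the sort, stood at 547 and 29.7 CPM over all kept cells. Clusters were made with the 10 genes and their companion lists left out of the variable genes, and each named class had at least 3 of its markers. Fibroblast-like cells had 8 of 8 fibroblast markers at 50 CPM or more in both libraries, macrophage-like cells 8 of 8, neutrophil-like cells 7 of 7 and endothelial-like cells 7 of 7. Clusters without a class name are given by number and leading genes. Of these, cluster 13 scored best for the fibroblast class and clusters 1, 2, 3 and 11 for the macrophage class, each with 8 of 8 markers. Another class had more markers among their leading genes, so they are not part of the fibroblast-like or macrophage-like values below. Most mesothelial-like (98.8% and 93.7%) and all plasma-like barcodes (100%) were doubted, as were 88.9% and 88.1% of cluster 21 (*Sult1e1*, *Tcf21*), so these are left out of the orders below.

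Start-site sequences are shown for 4 members because they carry the short words through which immediate early genes are known to be switched on, and because these genes' levels are compared below. RefSeq promoter windows of GRCm38.p6, the build also called mm10, were matched for 8 of the 10 members. Each line gives the 120 bases before the RefSeq start, 5′ to 3′ on the gene's strand, with the matched words in capitals. *Fos* is at chr12:85473770-85473889 on the plus strand, and its capitals mark TGACGT, the core of the element bound by CREB and ATF proteins, and the TATA word TATAAA. *Atf3* is at chr1:191183334-191183453 on the minus strand, and its capitals mark the same core read on the opposite strand. *Fosb* is at chr7:19310046-19310165 on the minus strand, with the variant TGACGCAA. *Zfp36* is at chr7:28379229-28379348 on the minus strand, with a CArG box, the word bound by serum response factor. The starts used for *Atf3* and *Zfp36* lie inside the gene spans given below, whose 5′ ends are at 191218039 and 28380253. Sequence before those outer ends was not searched.
Fos: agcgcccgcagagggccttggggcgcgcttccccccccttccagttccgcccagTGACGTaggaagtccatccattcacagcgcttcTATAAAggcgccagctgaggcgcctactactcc
Atf3: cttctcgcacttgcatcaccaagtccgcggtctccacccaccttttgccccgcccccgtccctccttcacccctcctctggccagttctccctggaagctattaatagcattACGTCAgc
Fosb: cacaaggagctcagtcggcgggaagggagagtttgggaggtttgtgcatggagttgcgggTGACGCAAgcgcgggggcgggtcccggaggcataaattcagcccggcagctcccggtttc
Zfp36: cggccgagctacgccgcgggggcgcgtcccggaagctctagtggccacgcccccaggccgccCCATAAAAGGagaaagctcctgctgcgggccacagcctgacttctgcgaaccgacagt

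Both strands of the 300 bases around each start were searched. TGACGT began 66 bases before the start of *Fos* and 8 before that of *Atf3*, and 7.51% of 32851 promoters held it. TGACGCAA began 60 bases before the start of *Fosb*, against 0.490% of promoters, and the CArG box 58 bases before that of *Zfp36*, against 1.63%. TATAAA was found 33 bases before the start of *Fos* and at the start of *Junb*, against 13.6% of promoters. The full word TGACGTCA, which contains TGACGT, was in the window of no member (1.79% of promoters), nor was TGAGTCA, the AP-1 word (5.20%). These are matches of letters in one window, and no binding was measured.

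Neutrophil-like and fibroblast-like cells had the largest share of immediate early RNA of the classes with over 30 cells in both libraries. The 10 genes together made up 12212 CPM (Tom positive) and 12536 CPM (Tom negative) of neutrophil-like RNA. Fibroblast-like cells held 9959.6 CPM (95% interval 9932 to 9987) and 11776 CPM (11749 to 11802). Cluster 13 (*Stra6*, *Crabp1*, *Tnc*, *Acta2*) followed at 7938 and 7777 CPM. Macrophage-like cells held 7053 and 6969.9 CPM, endothelial-like cells 7294 and 5610.0 CPM, pericyte or smooth muscle-like cells 6611 and 7028 CPM. The unnamed myeloid clusters 1, 2 and 11 were at the foot of the order, with cluster 2 (*Nos2*, *Rsad2*, *Mmp12*) at 3767 and 3871 CPM and cluster 11 (*Cited1*, *Chil3*, *Ppbp*) at 4369.6 and 4409 CPM. The unnamed cluster 3 (*Ccl17*, *Ccl22*) had 4799 and 5231 CPM, in the Tom negative library above carcinoma-like cells (4625 CPM). Among the 30 mast-like cells, all but 1 of the class being in the Tom positive library, the sum reached 22485 CPM (21850 to 23134), and 15 skeletal muscle-like cells were at 1970.4 CPM. Intervals of neighbours in the order overlapped for T or NK-like, carcinoma-like and cluster 3 cells in the Tom positive library, and, in the Tom negative library, for pericyte or smooth muscle-like and macrophage-like cells, for lymphatic and blood endothelial-like cells, and for carcinoma-like cells, cluster 1 and cluster 11. Where the same classes are cut out differently the fibroblast and neutrophil sums stayed above the macrophage sum: the ratio of the fibroblast to the macrophage sum was 1.41 and 1.69 and ran from 1.16 to 1.89 and from 1.42 to 2.39 over the alternatives.

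**Figure D1:**
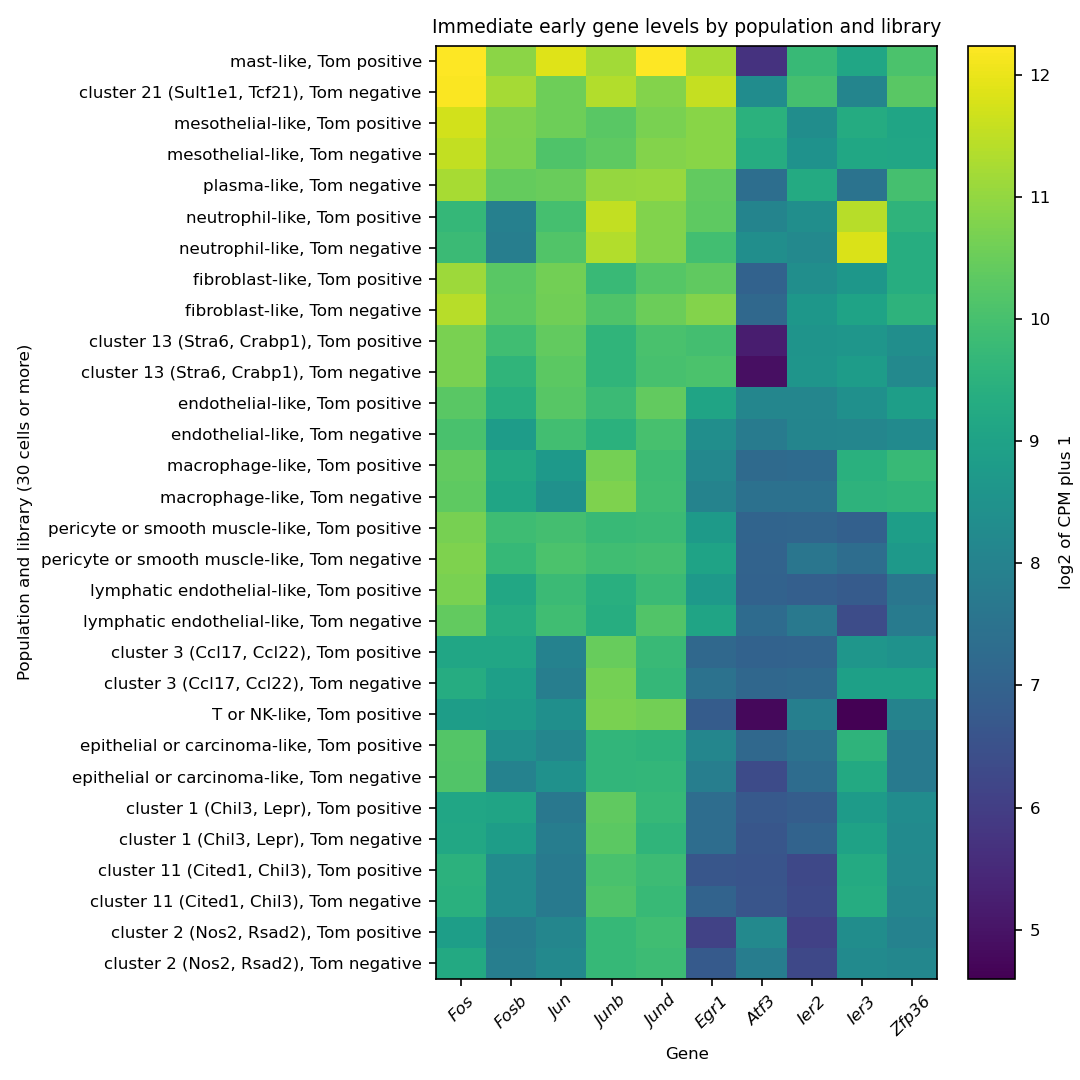
Level of each gene (columns) in each population and library of at least 30 cells (rows, ordered by the summed level), as log2 of CPM plus 1 in colour. The rows include cluster 21, mesothelial-like and plasma-like barcodes above the neutrophil-like rows. Most of these barcodes were doubted, and the orders in the text leave them out. Colours are to be read down a column, gene by gene. *Fos*, *Jun* and *Egr1* fade from the fibroblast rows to the myeloid clusters, while *Ier3* is bright in the neutrophil rows.

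*Fos* and *Fosb*, the FOS-family partners of AP-1, were highest in fibroblast-like cells of the classes with over 30 cells in both libraries. *Fos* (ENSMUSG00000021250, chr12:85473890-85477273, plus strand) stood at 2204 and 2741 CPM in fibroblasts and, near the foot of the order, at 466.7 and 598 CPM in cluster 2. Pericyte or smooth muscle-like cells (1635 and 1751 CPM) and cluster 13 (1677 and 1661 CPM) came after the fibroblasts, and their intervals overlapped in the Tom positive library. Neutrophil-like cells, first by the sum, held only 829.9 and 896 CPM of *Fos*. *Fosb* (ENSMUSG00000003545, chr7:19302696-19310051, minus strand) stood at 1255 and 1273 CPM in fibroblast-like cells, with cluster 2 (225 and 234.6 CPM) and neutrophil-like cells (243 and 233 CPM) last in order. It placed the myeloid clusters 1 and 3 higher than *Fos* did, at 461 to 550.1 CPM, above carcinoma-like and neutrophil-like cells. Both genes were highest in mast-like cells of the Tom positive library, at 4747 CPM (*Fos*) and 1919 CPM (*Fosb*), from 30 cells.

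The 3 JUN genes, whose products can pair with FOS or with one another, divided the tissue differently. *Jun* (ENSMUSG00000052684, chr4:95049034-95052222, minus strand) was highest in fibroblast-like cells of the same classes, at 1575 and 1525 CPM, followed by cluster 13 at 1340.4 and 1275 CPM. It had 1232 and 970.1 CPM in endothelial-like and 1020.2 and 1152 CPM in neutrophil-like cells. Macrophage-like cells held 414 and 351 CPM of it, and cluster 1 (*Chil3*, *Lepr*, *Car4*) 201 and 228 CPM. *Junb* (ENSMUSG00000052837, chr8:84974484-84978718, minus strand) had another order, led by neutrophil-like cells at 2988 and 2619 CPM. Macrophage-like cells, at 1589 and 1718 CPM, came second in the Tom negative library; in the Tom positive one mast-like (2307 CPM) and T or NK-like cells (1679 CPM) stood between, the latter with an interval overlapping that of the macrophages. Fibroblast-like cells held 882 and 1133 CPM of *Junb*, and lymphatic endothelial-like cells, the last in order, 677 and 653 CPM. *Jund* (ENSMUSG00000071076, chr8:70698949-70700616, plus strand), known as the JUN gene that resting cells also express, varied least across populations: outside mast-like cells it ran from 753 CPM (carcinoma-like) to 1757 CPM (neutrophil-like) in the Tom positive library and from 772 CPM (cluster 1) to 1776 CPM (neutrophil-like) in the Tom negative library.

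*Egr1* (ENSMUSG00000038418, chr18:34859823-34864984, plus strand), a zinc finger factor induced through serum response factor, had a wide range. Fibroblast-like cells held 1335 and 1817 CPM, neutrophil-like cells 1312 and 968 CPM and cluster 13 989 and 1086 CPM, while the other populations, mast-like cells apart, stayed at 534 CPM or less. Macrophage-like cells held 284 and 258 CPM and cluster 2 68.5 and 108 CPM. *Atf3* (ENSMUSG00000026628, chr1:191170296-191218039, minus strand), a stress-induced repressor or activator depending on its partner, had another order. Its highest populations were cluster 2 (292 and 229 CPM), endothelial-like cells (276 and 217.5 CPM) and neutrophil-like cells (262 and 329 CPM), and cluster 13, rich in *Egr1*, held 36.1 and 29.1 CPM. Cluster 2 was first or second for *Atf3*, with an interval overlapping that of endothelial-like cells, and last for *Egr1* in both libraries.

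The other 3 members are not AP-1 subunits. *Ier2* (ENSMUSG00000053560, chr8:84661331-84662852, minus strand), which encodes a nuclear protein, had much the order of *Egr1*, with 331 and 395 CPM in fibroblast-like cells, 371 and 383 CPM in cluster 13 and 66.5 and 75.1 CPM in cluster 2. *Ier3* (ENSMUSG00000003541, chr17:35821684-35822923, plus strand), which encodes a survival protein of stressed cells, was highest in neutrophil-like cells, with 2712 and 3612 CPM there against 695 and 737 CPM in macrophage-like cells, 399 and 521 CPM in fibroblast-like cells and 109 and 82.0 CPM in lymphatic endothelial-like cells. *Zfp36* (ENSMUSG00000044786, chr7:28376784-28380253, minus strand) encodes tristetraprolin, which binds AU-rich elements and hastens the decay of messages such as *Tnf*. It was highest, mast-like cells apart, in macrophage-like cells (865 and 769.7 CPM). Neutrophil-like cells (756 and 659.9 CPM) came next in the Tom positive library and fibroblast-like ones (649 and 742 CPM) in the Tom negative library. *Zfp36* was lowest in lymphatic endothelial-like and carcinoma-like cells at 193 to 219.5 CPM.

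Neutrophil-like cells were shallow, at medians of 3564 and 2729 UMIs, and markers of other cells were present in them. The 8 fibroblast markers summed to 4189 and 4037 CPM in them, against 78199 and 71003 CPM in fibroblast-like cells. The part of that RNA in the neutrophil levels of the 10 genes was not tested.

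Across the 30 population and library sums, 5 members kept together. Pearson's r of log2 levels was 0.91 for *Jun* with *Egr1*, 0.90 for *Ier2* with *Egr1*, 0.88 for *Fos* with *Egr1* and 0.86 for *Fos* with *Fosb*. The lowest r within the 5 was 0.70, for *Jun* with *Fosb*. *Jund* stood near them, with r of 0.79 with *Ier2*, 0.74 with *Jun*, 0.71 with *Egr1*, 0.60 with *Fos* and 0.54 with *Fosb*. *Zfp36* had r of 0.54 to 0.67 with the 5. *Junb* went with *Zfp36* (r = 0.75) and barely with *Fos* (0.12), *Ier3* showed no relation to *Fos* (0.00) and ran against *Fosb* (-0.24), and *Atf3* was close to none of them, its highest r being 0.34 with *Ier3*. The points share their library, and some of them free RNA and doubted barcodes, so these values are descriptions. Among 11420 genes, those most like the mean of the members were *Egr3* (r = 0.85), *Dnajb1* (0.84), *Sqstm1* (0.81), *Tcea3* (0.81) and *Gpc3* (0.81). *Egr3* is a further early response gene, *Dnajb1* encodes a heat shock co-chaperone, and *Gpc3* a glypican of mesenchymal cells. The gene most like each single member was *Thrb* for *Fos* (0.89), *Tpst1* for *Fosb* (0.88), *Mageh1* for *Jun* (0.90), *Kdm6b* for *Junb* (0.91), *Arl5b* for *Jund* (0.86), *Slc43a3* for *Egr1* (0.89), *Zfand5* for *Atf3* (0.75), *Cxcl12* for *Ier2* (0.84), *Olr1* for *Ier3* (0.84) and *Ccpg1* for *Zfp36* (0.79).

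The study's question is how p16-high stromal cells differ from p16-low ones, and over all kept cells no immediate early gene was past 1.5-fold between the sorts. The count is 0 of 10 members, where 7.73% of 9370 genes at 10 CPM or more were past it. *Egr1* stood at 836 and 1111 CPM (ratio 0.753, 95% interval 0.747 to 0.759), and *Atf3* at 147 and 125 CPM (ratio 1.18, 1.16 to 1.20). The other 8 ratios lay between 0.827 (*Ier3*) and 1.05 (*Jun*). Since the sorts differ in cell mix, the classes are compared within themselves below.

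In fibroblast-like cells (1304 Tom positive and 1862 Tom negative) most members had somewhat lower values in the Tom positive library, all of them within 1.5-fold. The count past the limit was 0 of 10, against 3.03% of 8625 genes. *Egr1* had 1335 and 1817 CPM (ratio 0.735, 0.728 to 0.742), *Ier3* 399 and 521 CPM (0.766, 0.752 to 0.780), *Junb* 882 and 1133 CPM (0.778, 0.769 to 0.788), *Fos* 2204 and 2741 CPM (0.804, 0.798 to 0.810) and *Jund* 1202 and 1485 CPM (0.809, 0.801 to 0.818). *Fosb* (1255 and 1273 CPM, ratio 0.986) and *Jun* (1575 and 1525 CPM, ratio 1.03) were nearly level. The median log2 difference of the 10 members was -0.28, beside 0.00 over all 8625 genes.

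**Figure D2:**
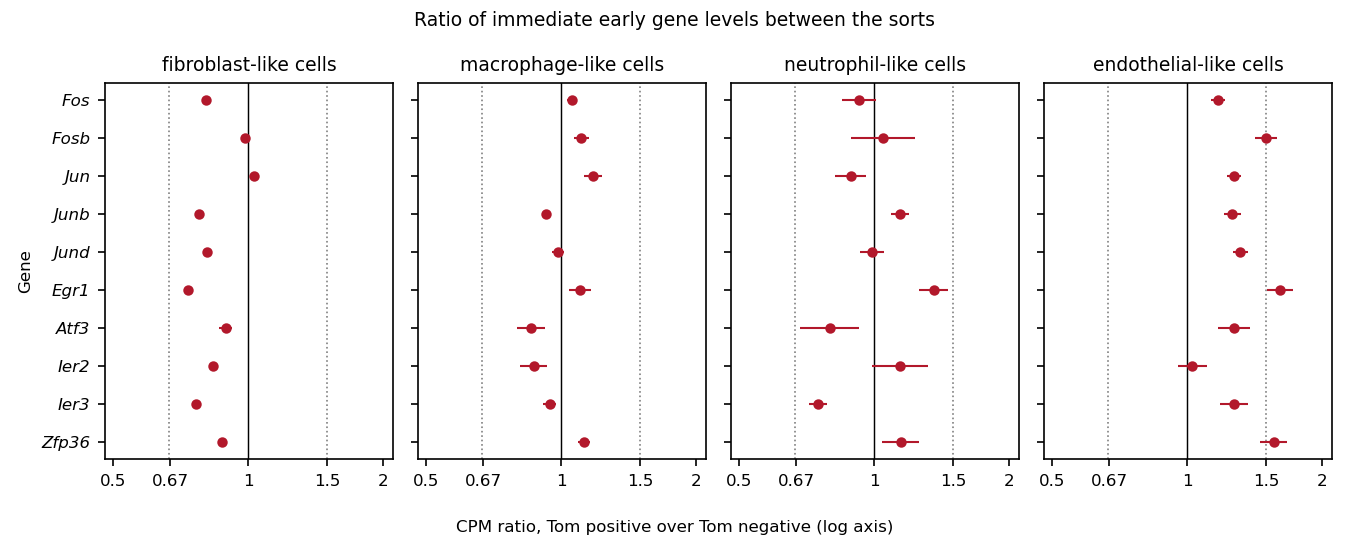
Ratio of CPM, Tom positive over Tom negative, for the 10 genes in 4 classes (log axis); points are ratios of summed counts, bars are 95% intervals for counting error, the solid line marks a ratio of 1 and the dotted lines the 1.5-fold limits. Fibroblast-like points lie between 0.735 and 1.03, and *Egr1* and *Zfp36* of endothelial-like cells lie past the upper limit.

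Part of this difference moved with which fibroblasts each sort held. The cluster led by *Dmkn*, *Sema3e* and *Cxcl13* had the highest sum of the members, 12697 and 13787 CPM, and made up 19.6% of Tom positive but 43.0% of Tom negative fibroblast-like cells. The cluster led by *Camk4*, *Col8a2* and *Nov* had the lowest, 7550.3 and 7769 CPM, and made up 26.0% and 23.1%. Within the *Dmkn* cluster *Egr1* was at 2043 and 2255 CPM (ratio 0.906, 0.891 to 0.921), and within the *Camk4* cluster at 964 and 1116 CPM (0.864, 0.844 to 0.884). The cluster led by *Hmcn2*, *Myoc* and *C7* had the widest gap, with *Egr1* at 1332 and 1947 CPM (0.684, 0.671 to 0.698) and *Ier3* at 345 and 557 CPM (0.619, 0.595 to 0.644), the 1 member of 10 past the limit there, beside 5.87% of genes. With the 4 clusters weighted equally *Egr1* had 1395 and 1704 CPM, a ratio of 0.819, and *Zfp36* a ratio of 0.994.

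Across the 4 fibroblast-like clusters *Fos*, *Junb*, *Jund* and *Egr1* had ratios below 1 in 4 of 4, with intervals that left out 1 in each. *Atf3* did the opposite: over the class it had 128 and 143 CPM (ratio 0.891, 0.862 to 0.920), yet in each of the 4 clusters its ratio was above 1. It had 64.0 and 37.0 CPM in the *Camk4* cluster (ratio 1.73, 1.55 to 1.93), where it was the 1 member past the limit beside 2.15% of genes. It had 175 and 150.3 CPM in the *Hmcn2* cluster, 65.8 and 51.1 CPM in the cluster led by *Cadm2* and *Greb1*, and 258 and 230 CPM in the *Dmkn* cluster. The *Dmkn* cluster, with the highest *Atf3*, made up more of the Tom negative cells, and with the clusters weighted equally the values for the class were 141 and 117 CPM.

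**Figure D3:**
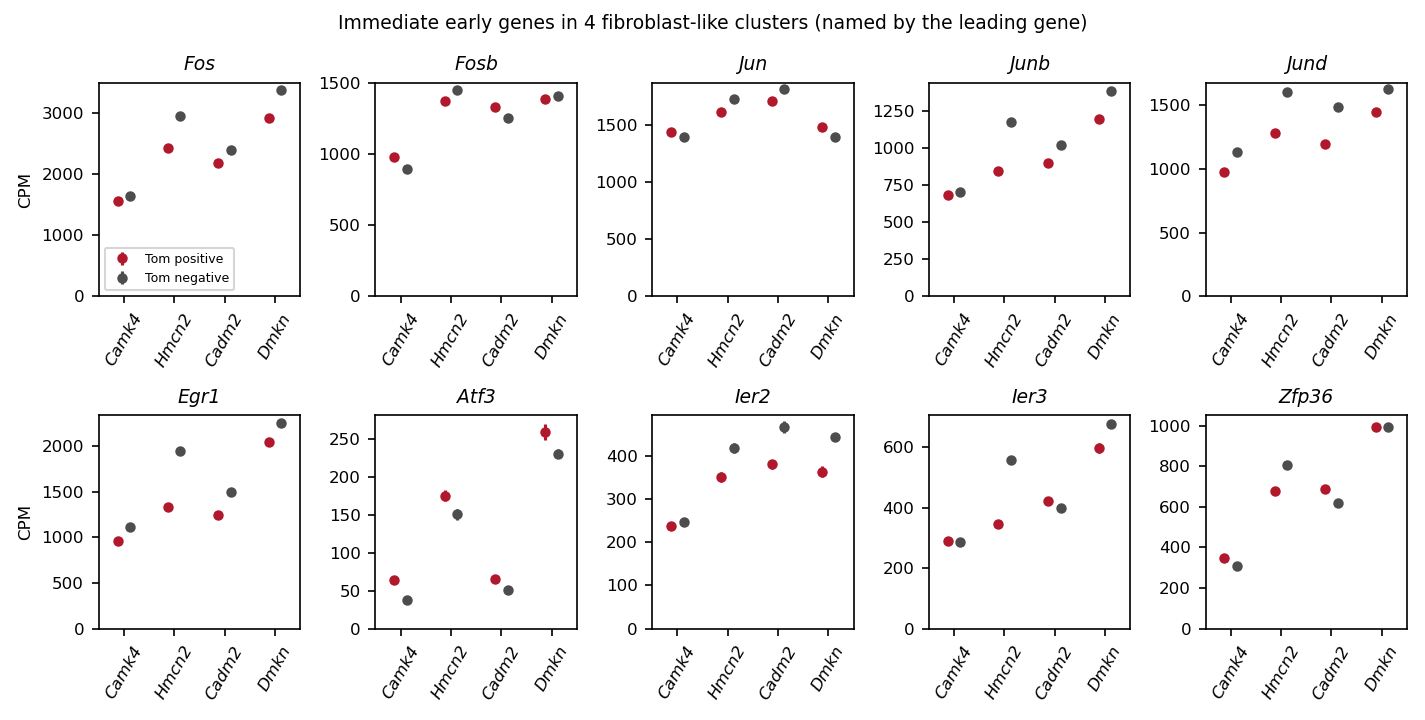
CPM of each gene in the 4 fibroblast-like clusters, each given by its leading gene, in the Tom positive (red) and Tom negative (grey) library; bars are 95% intervals for counting error, mostly smaller than the points, and axes start at 0. *Atf3* is the panel in which the red point lies above the grey one in every cluster, and *Egr1* one in which it lies below in every cluster.

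Within the Tom positive library, fibroblast-like cells with a high reporter level held more *Ier3* than the rest, and more *Egr1* over the class, though within the limit in most clusters. Of the 1304 Tom positive fibroblast-like cells, 200 had tdTomato at 500 CPM or more, and the summed members made up 12222 CPM in them against 9550.0 CPM in the other 1104, at medians of 37828 and 38615.5 UMIs. Past 1.5-fold higher were *Ier3*, with 652 and 353 CPM (ratio 1.84, 1.78 to 1.90), and *Egr1*, with 1926 and 1228 CPM (ratio 1.57, 1.54 to 1.60). They are 2 of 10 members, where 4.25% of 8674 genes were past the limit in that direction. The reporter-high cells came more from the *Dmkn* cluster, 87 of 200 against 168 of 1104, so the clusters were read apart. Reporter-high and other cells numbered 23 and 316 (*Camk4*), 28 and 335 (*Hmcn2*), 62 and 285 (*Cadm2*) and 87 and 168 (*Dmkn*). The share of all genes past the limit was not computed within clusters, so calls by cluster have no background beside them. *Ier3* was past the limit in 3 clusters. It had 448 and 281 CPM in the *Camk4* cluster, 588 and 324 CPM in the *Hmcn2* cluster and 769.5 and 494 CPM in the *Dmkn* cluster. In the *Cadm2* cluster *Ier3* had 574 and 391 CPM (ratio 1.47), and *Egr1* was past the limit with 1738 and 1140.0 CPM (ratio 1.52). The ratio of *Egr1* was within the limit in the others, at 1.28 in the *Camk4*, 1.49 in the *Hmcn2* and 1.15 in the *Dmkn* cluster. In the *Cadm2* cluster *Atf3* was lower in reporter-high cells, with 40.1 and 71.0 CPM (ratio 0.565, 0.454 to 0.698). Set against all Tom negative fibroblast-like cells, the reporter-high cells had a sum of 12222 CPM, against 11776 CPM. There *Egr1* had 1926 and 1817 CPM, *Ier3* 652 and 521 CPM, *Zfp36* 852 and 742 CPM and *Atf3* 164 and 143 CPM. *Fosb* had 1460 and 1273 CPM, *Jun* 1594 and 1525 CPM and *Jund* 1496 and 1485 CPM. Below the Tom negative values were *Fos* (2635 and 2741 CPM), *Junb* (1096 and 1133 CPM) and *Ier2* (348 and 395 CPM). By cluster, the *Egr1* values of reporter-high and Tom negative cells were 1215 and 1116 CPM (*Camk4*), 1906 and 1947 CPM (*Hmcn2*), 1738 and 1498 CPM (*Cadm2*) and 2222 and 2255 CPM (*Dmkn*), above in 2 clusters and below in 2. *Ier3* was above the Tom negative value in each cluster. In the same order it had 448 and 288 CPM, 588 and 557 CPM, 574 and 399 CPM, and 769.5 and 676 CPM.

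Macrophage-like cells (476 and 558) had nearly the same sum in both sorts and 0 of 10 members past the limit, beside 4.12% of 8270 genes. *Jun* had 414 and 351 CPM (ratio 1.18, 1.13 to 1.23), *Zfp36* 865 and 769.7 CPM (1.12, 1.09 to 1.16), *Egr1* 284 and 258 CPM (1.10, 1.04 to 1.16), *Atf3* 149 and 174 CPM (0.857, 0.798 to 0.920) and *Ier2* 152 and 175 CPM (0.868, 0.809 to 0.932). The direction was mixed over the class. In the one led by *Ms4a7*, *Folr2* and *Cd163* (369 and 334 cells), where the members summed to 6797.5 and 6180.0 CPM, 9 of 10 ratios were above 1, with *Egr1* at 258 and 197 CPM (1.31, 1.22 to 1.41), and the median log2 difference was 0.14. In the one led by *Retnla* and *Ear2* (107 and 224 cells), where they summed to 8228 and 8457 CPM, 5 were above and 5 below 1. The difference between the clusters was not tested.

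In neutrophil-like cells (289 and 538) none of the 10 members was past the limit. Of 7760 genes 44.5% were, 39% upward, and the median gene had a log2 difference of 0.40. These counts cannot be set against each other as they stand. The calls among all genes lay mostly on one side, with 39% higher and 5.5% lower, and what lay behind that shift was not tested. The class sums held only 1035053 and 1510878 UMIs. Genes near 10 CPM there rest on few UMIs, while each member rests on 252 to 5458 per library. *Egr1* had 1312 and 968 CPM (ratio 1.36, 1.26 to 1.46), *Junb* 2988 and 2619 CPM (1.14, 1.09 to 1.20), *Ier3* 2712 and 3612 CPM (0.751, 0.717 to 0.786) and *Atf3* 262 and 329 CPM (0.796, 0.684 to 0.925). TMM, a scaling to the bulk of genes, shifts every log2 difference down by 0.39 here. *Egr1* then stood at a log2 difference of 0.05, and *Atf3* and *Ier3* were past the limit as lower, at -0.72 and -0.80. The share of all genes past the limit after this scaling was not computed. The 7 neutrophil markers summed to 27064 and 39418 CPM and median depth was 3564 and 2729 UMIs, and the part of these in the result was not tested.

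Endothelial-like cells (512 and 237) had higher *Egr1* and *Zfp36* in the Tom positive library. *Egr1* had 531 and 330.2 CPM (ratio 1.61, 1.51 to 1.72) and *Zfp36* 473 and 304 CPM (1.56, 1.46 to 1.67). They are 2 of 10 members, where 4.98% of 9068 genes were past the limit upward and 13.2% in either direction. *Fosb*, with 672 and 449 CPM, had a ratio of 1.497 (1.42 to 1.58), just inside it. The other 7 had ratios from 1.03 (*Ier2*) to 1.31 (*Jund*), and the median of the 10 members was 0.35 in log2, beside -0.03 over all genes. Of the Tom negative endothelial-like barcodes 118, or 49.8%, were doubted, against 1 in the Tom positive library, and median depth was 31161 and 2151 UMIs. The reporter separated the sorts less here than over all cells, at 208 and 107 CPM of tdTomato, with a UMI in 91.4% and 52.7% of the barcodes. The 8 fibroblast markers summed to 1127 and 3079 CPM. Without the doubted barcodes the differences were as large: *Egr1* had 531 and 316 CPM, *Zfp36* 473 and 297 CPM, and *Fosb* was past the limit as well. Weighting each cell equally instead of each UMI left no member past the limit.

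Of the smaller populations, cluster 2 (142 and 245 cells) had *Egr1* lower in the Tom positive library, at 68.5 and 108 CPM (ratio 0.633), 1 of 10 members beside 5.69% of genes. Lymphatic endothelial-like cells (145 and 32) had *Ier2* at 119 and 204 CPM, past the limit beside 32.1% of genes, and 20 of those 32 cells were doubted. Carcinoma-like cells (43 and 73) had *Atf3* at 143 and 80.8 CPM, past the limit beside 23.4% of genes. Cluster 13, the largest population after the fibroblast-like class in the Tom negative library, had a sum of 7938 and 7777 CPM with 0 of 10 past the limit, beside 2.23% of genes.

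Nearly every cell held some immediate early RNA. With each cell thinned to 2000 UMIs, the 10 genes gave a median of 18 UMIs in Tom positive and 23 in Tom negative fibroblast-like cells, with the middle 90% of cells from 4 to 44 and from 5 to 47. Neutrophil-like cells had medians of 20.5 and 23, macrophage-like cells of 14 and 14, endothelial-like cells of 13 and 8, and cluster 2 of 7 and 8. Only 3 of 1286 Tom positive and 4 of 1762 Tom negative thinned fibroblast-like cells had no UMI of any member. *Fos* was detected in 89.7% and 93.02% of thinned fibroblast-like cells and *Egr1* in 83.8% and 90.2%, against 45.7% and 56.4% (*Fos*) and 15.2% and 14.5% (*Egr1*) in cluster 2. Unthinned, *Fos* had a UMI in 95.3% and 93.8% of all kept cells, at these libraries' unequal depths. No class is known to lack these genes, so a background share from free RNA could not be set.

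**Figure D4:**
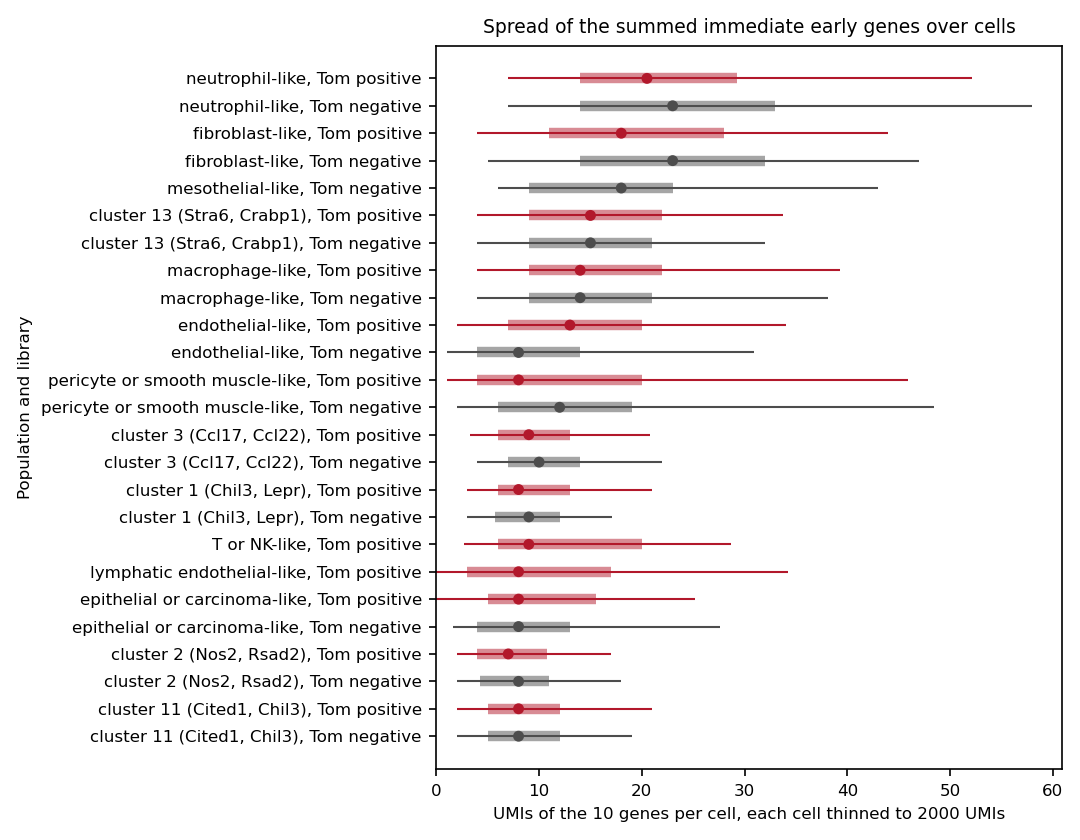
UMIs of the 10 genes together per cell after thinning each cell to 2000 UMIs, by population and library (red Tom positive, grey Tom negative). Points are medians, thick bars the middle 50% and thin lines the middle 90% of cells; the fibroblast-like and neutrophil-like medians of 18 to 23 stand above the medians of 7 to 9 of the unnamed myeloid clusters 1, 2 and 11, and the spread within each population is wide.

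From cell to cell the members varied together, in the fibroblast-like class and in others. Over thinned fibroblast-like cells all 45 pairs of members had r above 0 in both libraries, with a median of 0.26 over 1286 Tom positive and 0.23 over 1762 Tom negative cells; these cells pool 4 clusters whose summed levels ran from 7550.3 to 13787 CPM. The closest pairs were *Fos* with *Fosb* (0.50 and 0.47), *Fos* with *Zfp36* (0.49 and 0.43) and, in the Tom negative library, *Fos* with *Egr1* (0.43). In macrophage-like cells the median was 0.22 and 0.21, led by *Fos* with *Zfp36* (0.50 and 0.42) and *Fos* with *Jun* (0.40 and 0.40). In neutrophil-like cells it was 0.12 and 0.09, in endothelial-like cells 0.26 and 0.27, in Tom negative pericyte or smooth muscle-like cells 0.33 and in Tom positive lymphatic endothelial-like cells 0.29. All are descriptions over cells of 1 library at equal depth, without a test, and thinned counts near 1 UMI lower them.

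**Figure D5:**
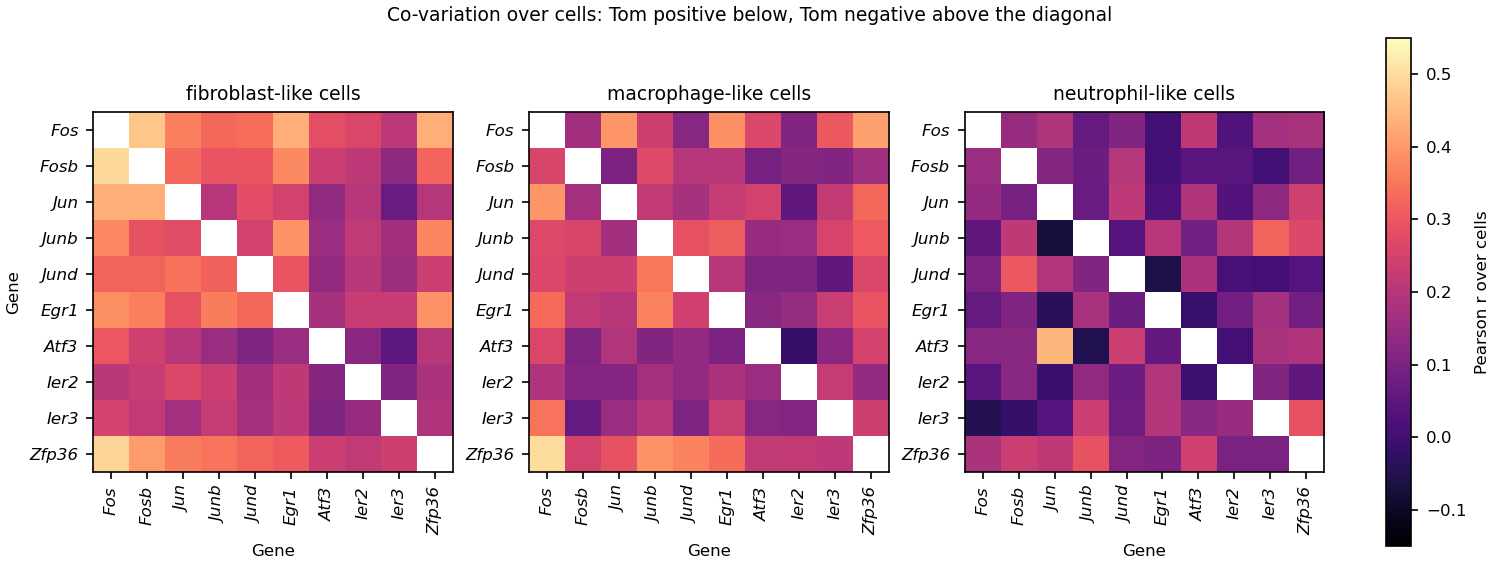
Pearson's r between pairs of genes over thinned cells of 3 classes, Tom positive below and Tom negative above the diagonal. The fibroblast-like panel is brightest where *Fos* meets *Fosb*, *Egr1* and *Zfp36*, while most neutrophil-like pairs are dark, with the Tom positive pair of *Atf3* and *Jun* (0.44) as the brightest.

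Values that bear on handling are given here beside the members, and their part in the levels above was not tested. The 16 heat shock genes, which dissociation is also known to induce, summed to 3610.4 and 3813 CPM in fibroblast-like cells. They summed to 3996 and 4412 CPM in macrophage-like and 5567 and 4546 CPM in neutrophil-like cells. The 15 skeletal muscle-like cells held 21158 CPM of them, and which of the 16 genes made up that sum was not examined. Over fibroblast-like cells the members' sum had Spearman's rho of 0.06 and 0.09 with the heat shock sum and of -0.24 and -0.36 with the mitochondrial share. Its rho with the heat shock sum was 0.18 and 0.19 in neutrophil-like, -0.04 and -0.06 in macrophage-like and -0.09 and 0.06 in endothelial-like cells. Over macrophage-like cells the members' sum had rho of -0.44 and -0.45 with the depth before thinning, so shallow macrophages held the larger shares.

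Of the companion lists in fibroblast-like cells, 1 of 38 other early response genes was higher and 3 were lower in the Tom positive library, with a median log2 difference of -0.12; over all genes 1.09% were higher and 1.94% lower. The lower ones were *Csrnp1* (48.03 and 82.2 CPM), *Myc* (81.4 and 124 CPM), the growth regulator, and *Phlda1* (111 and 168 CPM), and *Errfi1*, an inhibitor of EGF receptor signalling, had 385 and 541 CPM. None of 16 heat shock genes (median 0.02), none of 18 AP-1 partners and upstream factors (median 0.01) and neither of the 2 measured relatives of *Zfp36* was past the limit there. *Hsph1*, a heat shock protein, had 50.6 and 36.5 CPM, *Dnajb1* 72.8 and 97.2 CPM, *Atf4* 117 and 106 CPM and *Zfp36l1* 633 and 704 CPM. In macrophage-like cells 2 of 37 other early response genes were lower and 0 higher, where 2.27% and 1.85% of all genes were, and 1 of 19 AP-1 partners and 1 of 14 heat shock genes were lower. The early response genes were *Gadd45b*, a stress and growth arrest gene, with 49.8 and 89.99 CPM, and *Phlda1*, with 51.2 and 88.2 CPM. *Ptgs2*, the inducible cyclooxygenase, had 53.6 and 77.6 CPM there, and *Maff*, a small MAF protein that can pair with FOS, 46.2 and 66.7 CPM. In neutrophil-like cells 6 of 15 heat shock genes, 5 of 19 AP-1 partners and 5 of 39 other early response genes were higher, and 0, 1 and 2 lower, where 39% of all genes were higher and 5.5% lower. Chosen after their values were seen, *Hsph1* had 93.7 and 17.2 CPM there, from 97 and 26 UMIs, and *Nr4a2*, an early nuclear receptor, 94.7 and 21.2 CPM, from 98 and 32 UMIs. In endothelial-like cells 3 of 38 other early response genes were higher and 2 lower, where 4.98% and 8.2% of all genes were, 1 of 17 AP-1 partners was higher, and none of 15 heat shock genes was past the limit. Of the early response genes *Nfkbiz*, a regulator of NF-kappa-B targets, had 426 and 232 CPM and *Irf1*, an interferon regulatory factor, 90.5 and 46.3 CPM, also chosen after their values were seen.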

How the data were processed

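Per the labels, 10x Genomics 3′ libraries of both sorts were sequenced. The deposited matrices hold the authors' UMI counts, one value for each gene and barcode; the submitters' processing notes name Cell Ranger 7.0.1 and mm10, and the rule by which barcodes were called cells is not given in the sources used here. Barcodes were filtered on genes (500 or more), UMIs (1000 or more) and mitochondrial share (10% or less), and Scrublet, run within scanpy 1.11.5, took out 63 and 97 doublets. Clustering used log values scaled to a total of 10000 for each cell, 2000 variable genes that excluded the members and companion lists, 30 components, 15 neighbours and Leiden at resolution 1; it gave 22 clusters, with no correction between libraries. To be named, a cluster needed 3 or more markers of a class at 50 CPM, a mean log2 excess over the median cluster of 1 or more, and no other class with more markers in its top 10 genes; clusters below 0.333 of their sample's median depth and without a leading marker stayed unnamed. Names rest on these rebuilt clusters. These naming limits, the 500 CPM limit of tdTomato and the reading of reporter-high against other Tom positive cells were set after the data were seen.

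Counts were added up for each population and library and turned into CPM. Log2 differences are of CPM plus 1, ratios of plain CPM; intervals at 95% are exact Poisson for CPM, Clopper-Pearson for shares and exact conditional for ratios. Shares and correlations over cells use cells thinned to 2000 UMIs, leaving out 394 and 1413 shallower ones. The calculation was tested on simulated counts. The members and lists were chosen with earlier results of these data known. All 10 members are named. A companion list could contribute up to 4 genes, those with the largest log2 difference in the fibroblast-like or the macrophage-like class where either library reached 50 CPM. For likeness, 5 genes for the members' mean and 1 for each member were taken among genes that reached 20 CPM. Gene positions are from GENCODE M21. Alternatives covered cell filters, doublets, doubted barcodes, scaling, depth, fold limit, variable genes, resolution, cell mix and reporter level.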

Additional observations from a re-analysis of the deposited data

Results flagged for a closer look

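*Egr1* moved in opposite directions between the sorts in separate populations. Its log2 difference, Tom positive minus Tom negative, was 0.68 in endothelial-like cells and -0.65 in cluster 2 (*Nos2*, *Rsad2*, *Mmp12*). Of all genes 13.2% and 5.69% were past the limit in these populations. The endothelial-like value ran from 0.32 to 0.83 over the alternatives, and 49.8% of the Tom negative barcodes there were doubted. The cluster 2 value rests on 247 and 621 UMIs. The difference between these populations was not tested, since each has 1 library per group.

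Barcodes under 1000 UMIs were used in none of the report's comparisons, and 1 alternative filter let them in. Immediate early RNA was a larger share of their UMIs than of those of the kept cells. The 10 genes summed to 13044 CPM over 2281 Tom positive and to 15367 CPM over 6285 Tom negative barcodes, against 7977 and 8764 CPM in kept cells. *Fos* stood at 3105 and 3535 CPM in them, *Egr1* at 1809 and 2132 CPM and *Atf3* at 454 and 482 CPM. The fibroblast markers summed to 18504 and 24954 CPM and the plasma cell markers to 31624 and 7763 CPM there, the heat shock genes to 5756 and 5311 CPM, and 88.7% and 32.6% of these barcodes also occurred in the other library. From the bin of 1000 to 2000 UMIs to that of 5000 to 10000 UMIs the summed members went from 9223 to 6565 CPM and from 11380.1 to 6988 CPM. In the deeper bins, from 10000, 20000 and 50000 UMIs on, they stood at 6923, 7769.6 and 8119.6 CPM and at 6965, 9057 and 8187 CPM, so the fall did not go on with depth.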

How the results depend on the processing

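No paired analysis was possible because each group has 1 library. Members past 1.5-fold were 0 in fibroblast-like cells under every alternative run. With reporter-high Tom positive cells only, however, the members' sum in this class was 12222 against 11776 CPM, above the Tom negative value instead of below it. For endothelial-like cells (2 members) the count was 1 with mitochondrial shares of at most 5% (*Egr1*), 1 with doublets kept (*Zfp36*), and 0 with a mean over cells or a 2-fold limit. For macrophage-like cells (0) it was 1 with at least 200 genes and no UMI minimum (*Egr1*, lower), where Scrublet called no doublet in the Tom negative library. For neutrophil-like cells (0) it was 2 with TMM (*Atf3* and *Ier3*), and over all kept cells (0) it was 1 with reporter-high Tom positive cells only (*Egr1*, at a log2 difference of -0.68). The cause was not tested, and the share of all genes past the limit was not computed under the alternatives. Of 730 values of single members under the alternatives, 70 had the other sign, 6 moved by over 0.5 in log2 and 31 were past the limit. Leaving out doubted barcodes with the clusters kept was chosen after the data were seen. The shallow classes limit the low members: medians were 2729 to 3564 UMIs in neutrophil-like cells, and 2151 and 1601.5 UMIs in Tom negative endothelial-like and lymphatic endothelial-like cells. Differences between animals or sorts on other days cannot be seen with 1 library per group.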
